A study of Mus musculus with 20 samples.

Results

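The genes that make, regulate and move cholesterol were followed in lumbar dorsal root ganglia of adult mice, the clusters of sensory neuron cell bodies and their glia beside the spinal cord. The set holds 30 of the 55416 genes in the deposited count files, listed by symbol for their known roles. The rule itself uses no measured value, but the set was proposed with earlier results of these data known. It has 8 enzymes of the mevalonate arm, 11 enzymes of the sterol arm, 5 regulators and 6 genes of transport and storage. All 30 matched 1 gene ID each and passed the filter on low counts.

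Cholesterol is built from acetyl-CoA through mevalonate and farnesyl diphosphate to squalene, which is closed into a ring and trimmed to cholesterol by the sterol enzymes. When sterol in the endoplasmic reticulum is low, SCAP escorts the SREBP transcription factors (encoded by Srebf1 and Srebf2) to the Golgi for cleavage, and the released factor turns on the synthesis genes through sterol regulatory elements in their promoters. When sterol is high, INSIG proteins hold SCAP back. In peripheral nerve and ganglia, Schwann cells make cholesterol for myelin, and neurons use it in their membranes.

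The study compared ganglia that had lost Prdm12, which encodes a transcriptional regulator needed for pain-sensing neurons to develop, with ganglia that had not, at rest and after injection of formalin, a chemical used to provoke pain. The 10 C57Bl6 animals (5 female and 5 male) gave a noninjected and a formalin library each, 20 libraries in all, of polyadenylated RNA from ganglia L3 to L5, prepared without strand information. The labels do not say from which side of the animal each library came. Every animal was homozygous for the floxed Prdm12 allele and received tamoxifen 1 month earlier, and the inducible conditional knockouts (icKO) also carried a tamoxifen-activated Cre recombinase. The sample labels name that Cre as AdvCreERT2, from the Advillin gene of sensory neurons, and the series text names Rosa26CreERT2, which is expressed broadly, so the cells that recombined cannot be told from these records. Controls carried no Cre by their labels, so the presence of Cre and the loss of Prdm12 cannot be told apart.

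The genotype in the sample titles and the genotype word in the deposited names differ for 4 of the 10 animals, those titled control 1, control 4, icKO 2 and icKO 3. Groups follow the deposited names unless stated: the deposited-icKO animals are those titled control 1, control 4, icKO 1, icKO 4 and icKO 5 (2 female, 3 male), and the deposited-control animals are those titled control 2, control 3, control 5, icKO 2 and icKO 3 (3 female, 2 male). Animals are called by their titles throughout. Prdm12, the targeted gene, ran from 18.2 to 32.7 counts per 1000000 counts (CPM) in the deposited-icKO animals and from 73.2 to 101 CPM in the deposited-control animals. In the titled groups it overlapped, from 18.2 to 98.5 CPM in icKO and from 25.9 to 101 CPM in controls. Each genotype result was therefore also fitted by title and in the 6 animals for which both records agree (control 2, 3 and 5 against icKO 1, 4 and 5).

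The 19 libraries used held 11763893 to 22392635 counts. The formalin library of icKO 1 held 2829 counts, 9 of them on these genes, and was left out, so icKO 1 is represented by its noninjected library alone. The least abundant of the 30 genes still had 64 counts in its poorest library. All 12 sensory neuron markers were detected in every library, from a lowest value of 66 CPM (Rbfox3) upwards. The formalin library of icKO 5 stood apart in skeletal muscle transcripts, with 2494 CPM summed over the muscle list against a median of 100 CPM over the 19 libraries.

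Promoter windows of 300 bases, from 250 before to 50 after the annotated start, were at hand in RefSeq (build GRCm38.p6) for 24 of the 30 genes, and not for Fdps, Fdft1, Sqle, Stard4, Npc1 and Abcg1. They are shown for the gene whose window holds a sterol regulatory element (Hmgcs1) and for genes that passed a genotype test (Acat2, Msmo1 and Srebf2). Hmgcs1 lies at chr13:119690101-119690400 (plus strand), Acat2 at chr17:12960676-12960975 (minus strand), Msmo1 at chr8:64733529-64733828 (minus strand) and Srebf2 at chr15:82147019-82147318 (plus strand). Each window reads 5′ to 3′ along the gene and spans its proximal promoter and the first transcribed bases. Capitals mark exact matches on either strand to TCACNCCAC (a form of the sterol regulatory element), CCAAT (the CCAAT box, reverse complement ATTGG) and GGGCGG (the GC box, reverse complement CCGCCC).
Hmgcs1 promoter: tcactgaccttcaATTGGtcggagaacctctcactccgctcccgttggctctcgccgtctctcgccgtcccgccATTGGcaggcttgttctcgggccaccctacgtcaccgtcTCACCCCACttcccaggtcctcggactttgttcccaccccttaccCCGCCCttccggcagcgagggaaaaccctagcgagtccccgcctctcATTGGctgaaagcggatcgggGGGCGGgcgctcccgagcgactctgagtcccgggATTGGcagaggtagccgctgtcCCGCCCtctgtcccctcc
Acat2 promoter: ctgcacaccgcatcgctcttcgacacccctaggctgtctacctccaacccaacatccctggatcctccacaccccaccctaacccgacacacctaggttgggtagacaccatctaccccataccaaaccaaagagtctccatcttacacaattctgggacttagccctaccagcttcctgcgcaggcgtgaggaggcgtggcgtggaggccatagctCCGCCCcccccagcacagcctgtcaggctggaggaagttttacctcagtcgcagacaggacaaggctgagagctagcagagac
Msmo1 promoter: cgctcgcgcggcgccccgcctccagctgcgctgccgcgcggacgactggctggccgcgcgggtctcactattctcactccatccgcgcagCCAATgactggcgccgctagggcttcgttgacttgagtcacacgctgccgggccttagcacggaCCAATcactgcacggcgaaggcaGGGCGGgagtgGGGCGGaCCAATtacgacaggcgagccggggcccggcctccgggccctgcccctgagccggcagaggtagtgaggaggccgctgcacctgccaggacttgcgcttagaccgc
Srebf2 promoter: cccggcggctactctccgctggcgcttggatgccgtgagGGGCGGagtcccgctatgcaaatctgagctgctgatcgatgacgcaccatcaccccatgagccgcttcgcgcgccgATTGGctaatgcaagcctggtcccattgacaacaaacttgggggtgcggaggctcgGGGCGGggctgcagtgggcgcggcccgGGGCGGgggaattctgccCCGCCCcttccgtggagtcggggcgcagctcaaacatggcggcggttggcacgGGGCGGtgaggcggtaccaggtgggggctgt

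The sterol regulatory element letters were found in the Hmgcs1 window alone among the 24 genes, 137 bases before the start, and in 408 of 32851 windows of all genes (1.24%). Only exact matches to this 1 form were sought, so a window without a match is not shown to lack the element. CCAAT was found in 21 of the 24 genes (87.5%), against 37.4% of all windows, and GGGCGG in 22 of 24 (91.7%), against 35.7%. A gene with several windows, as 5 of the 24 have, counts once if any window matches, so these shares are descriptions and not on equal terms. Hmgcs1 holds 4 CCAAT matches and Msmo1 3, where Srebf2 has 1 and Acat2 none.

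Levels between genes were compared as CPM per kilobase of exon, over the 10 animal totals (both libraries of an animal summed). Hmgcs1, the cytosolic synthase that makes HMG-CoA, was highest at 133 ± 8.48 CPM per kb (SD, n = 10). Fdft1, squalene synthase at the entry to the sterol arm, followed at 61.4 ± 7.77 CPM per kb. Pmvk (44.1 ± 3.07), which adds the second phosphate to mevalonate, Acat2 (42.5 ± 4.73), the thiolase that makes acetoacetyl-CoA, Msmo1 (42.3 ± 5.21), a sterol methyl oxidase, and Sqle (42.1 ± 3.10), squalene epoxidase, were at similar levels per kb. At the low end were Fdps (4.96 ± 0.665), farnesyl diphosphate synthase, Soat1 (4.02 ± 0.325), which esterifies cholesterol for storage, Npc1 (3.99 ± 0.414), which moves cholesterol out of lysosomes, and Idi1 (1.91 ± 0.213 CPM per kb), the isopentenyl diphosphate isomerase. Of the 29 neighbouring pairs in this order, only Hmgcs1 over Fdft1 and Npc1 over Idi1 had no overlap between the animals.

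Some exons are shared with other genes. Where the other gene lies on the opposite strand, reads cannot be assigned to 1 gene without strand. The share of exon bases that lies opposite another gene was 18.3% in Fdft1 (opposite Ctsb), 13.2% in Scap, 12.1% in Hmgcs1 and 9.2% in Idi1. Other overlaps lie on the same strand, where strand would not separate the reads. Fdps shares 1124 of 4208 exon bases with Gm43738, Tm7sf2 532 of 4403 with Vps51 and Srebf1 66 of 5634 with Mir6922. Acat2 has a near copy, Acat3, which was at 0.342 CPM in the deposited-icKO animals, far below Acat2 itself. The level of Acat3 in the deposited-control animals is not given here.

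**Figure D1:**
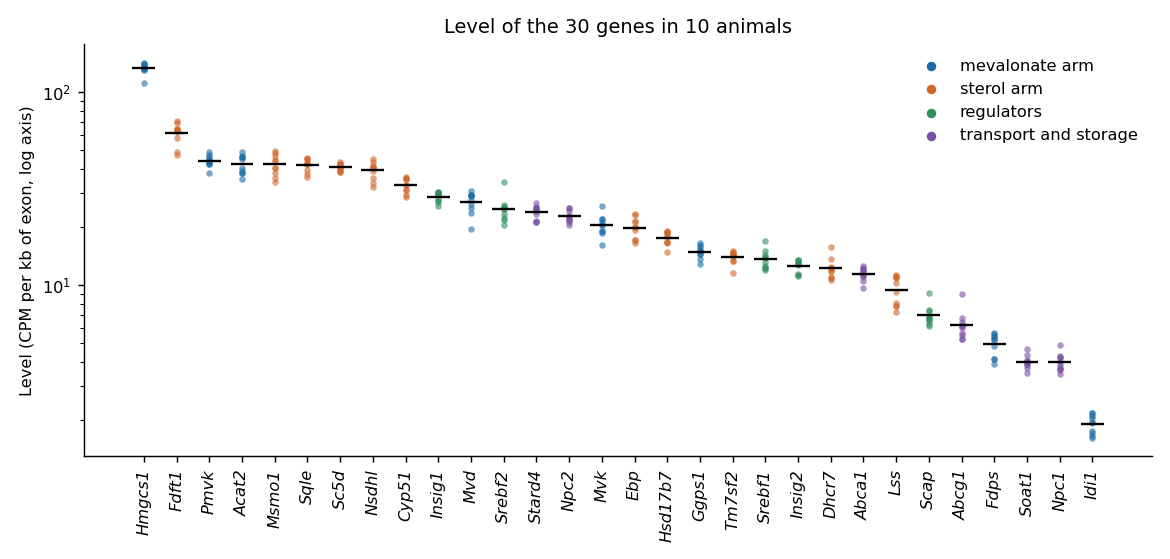
Level of each of the 30 genes in CPM per kilobase of exon (log axis), with 1 point per animal (n = 10) and the mean as a line, coloured by role and ordered by mean. Hmgcs1 stands alone at the top (133 CPM per kb) and Idi1 at the bottom (1.91 CPM per kb).

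Spread between animals was similar to that of other genes of the same level. The SD of log2 CPM over the 10 animals ran from 0.06 (Sc5d, a sterol desaturase) to 0.25 (Lss, lanosterol synthase), with a median of 0.15 over the 30 genes and also 0.15 over the 11451 genes in the same range of CPM. Over the 19 libraries, Hmgcs1 ran from 522 CPM (control 4 formalin) through a median of 614 to 703 CPM (icKO 5 formalin), and Idi1 from 5.38 CPM (icKO 4 noninjected) through 6.86 to 8.81 CPM (control 3 formalin). Sc5d had 180, 202 and 224 CPM and Lss 71, 110 and 131 CPM as lowest, median and highest library. In animal totals, Sc5d ran from 187 CPM in control 3 to 212 CPM in control 1. Lss ran from 78.6 CPM in control 3 to 122 CPM in icKO 3. Abcg1, an exporter of cholesterol to lipoprotein particles, had the widest span, 1.73-fold between 38.3 CPM in control 2 and icKO 2 and 66.1 CPM in icKO 1. The value of icKO 1 is its noninjected library alone, where the other animals sum both agents. In icKO 5, Abcg1 was at 64.4 CPM noninjected, 37.9 CPM with formalin and 49.5 CPM in the animal total.

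By deposited name, 1 of the 30 genes passed the genotype test over animal totals, Acat2, which was lower in icKO, and most other synthesis enzymes had a fold below 0 without passing. Summed over the 19 enzymes, the deposited-icKO animals were at 2645 (control 1), 2379 (control 4), 2502 (icKO 1), 2369 (icKO 4) and 2384 CPM (icKO 5). The deposited-control animals were at 2713 (control 2), 2670 (control 3), 2674 (control 5), 2736 (icKO 2) and 2724 CPM (icKO 3). These sums did not overlap, but the gap between control 1 and control 3 was small. Of the 19 enzymes, 17 had a fold below 0 and 2 (10.5%) above 0, with a median log2 fold of -0.12, where 51.1% of all 18787 genes tested were above 0 with a median of 0.00. The 19 enzymes were read in the same animals and are not separate observations. Over 15 alternative settings the count below 0 was 15 to 18 and the median -0.15 to -0.07.

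Acat2 was at 103 (control 1), 99.6 (control 4), 96.6 (icKO 1), 97.0 (icKO 4) and 90.1 CPM (icKO 5) in deposited-icKO animal totals. In deposited-control totals it was at 117 (control 2), 125 (control 3), 119 (control 5), 118 (icKO 2) and 115 CPM (icKO 3). Every deposited-icKO animal lay below every deposited-control animal, including the 4 whose records differ. The means were 97.3 ± 4.82 and 119 ± 3.94 CPM (SD, n = 5 and 5), a log2 fold of -0.29 (SE 0.06). The Benjamini-Hochberg adjusted p was 0.0391 by the quasi-likelihood test of edgeR, with sex in the model. Acat2 was the 1 call among the 30 genes (3.33%), where 1.09% of all genes tested were called. The call held in 8 of 15 alternatives, whose adjusted p ran from 0.000149 to 0.172, and was lost when control 2, 3 or 5 or icKO 2, 3, 4 or 5 was left out.

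Also without overlap between the animals were Fdps, Msmo1 and Nsdhl, a sterol dehydrogenase that acts after Msmo1. Fdps was at 18.7 ± 2.27 CPM in deposited-icKO and 23.1 ± 0.693 CPM in deposited-control animals (SD, n = 5 and 5), with 21.8 CPM in control 1, the highest deposited-icKO animal, just under 22.1 CPM in control 3. Msmo1 was at 250 (control 1), 234 (control 4), 211 (icKO 1), 220 (icKO 4) and 249 CPM (icKO 5) against 287 (control 2), 305 (control 3), 273 (control 5), 296 (icKO 2) and 272 CPM (icKO 3). Its log2 fold was -0.30 (SE 0.07), and its adjusted p of 0.0694 in edgeR's test missed the threshold of 0.05. Nsdhl was at 104 ± 9.87 against 121 ± 5.33 CPM (SD, n = 5 and 5), with log2 fold -0.21 (SE 0.07). In all, 4 of 30 genes (13.3%) were lower in icKO with no overlap, where 2.27% of all genes were, and 0 of 30 were higher with no overlap, where 1.88% of all genes were.

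Elsewhere in the mevalonate arm, Idi1 had a log2 fold of -0.26 (SE 0.10), Ggps1, which makes geranylgeranyl diphosphate for protein prenylation, -0.12 (SE 0.06), Pmvk -0.06 (SE 0.07), Hmgcs1 -0.05 (SE 0.08), the decarboxylase Mvd -0.05 (SE 0.09) and mevalonate kinase Mvk 0.09 (SE 0.09). In the sterol arm, the isomerase Ebp had -0.26 (SE 0.08), Fdft1 -0.21 (SE 0.08), the lanosterol demethylase Cyp51 -0.18 (SE 0.06), Lss -0.16 (SE 0.12) and Sqle -0.09 (SE 0.07). The ketoreductase Hsd17b7 (-0.07, SE 0.06), Sc5d (-0.03, SE 0.06), the sterol reductase Tm7sf2 (-0.02, SE 0.07) and Dhcr7, which catalyses the last step to cholesterol (0.04, SE 0.08), had log2 folds close to 0. None of these passed the test.

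Folds of the 5 regulators were above 0. Srebf2, the main SREBP gene for cholesterol synthesis, had a log2 fold of 0.24 (SE 0.09, adjusted p = 0.208 by edgeR), Scap 0.18 (SE 0.09), Insig1 0.04 (SE 0.06), Insig2 0.02 (SE 0.07) and Srebf1, which drives fatty acid synthesis more than cholesterol, 0.02 (SE 0.09). None of the 5 passed. Among transport genes, Abcg1 had 0.26 (SE 0.12), Stard4, a soluble sterol carrier, -0.13 (SE 0.07), and Abca1, the exporter to apolipoprotein, -0.12 (SE 0.07). The lysosomal pair Npc1 (-0.03, SE 0.08) and Npc2 (-0.06, SE 0.07) and Soat1 (-0.01, SE 0.08) were near 0. Over the same totals none of 17 Schwann cell and myelin genes was called (12 with a fold below 0). None of 8 erythroid or 11 skeletal muscle genes was called, although all had a fold above 0 (median log2 fold 1.41 and 2.09). At an unadjusted p under 0.05 by edgeR were 7 of the 8 erythroid genes (87.5%) and 0 of the 11 muscle genes, against 17.2% of all genes. Also with none called, folds were above 0 for 10 of 12 sensory neuron, 7 of 10 fibroblast and 5 of 8 endothelium genes. They were below 0 for 9 of 12 macrophage and 6 of 10 satellite glia genes. Their part in the enzyme values was not tested.

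In the 6 animals whose records agree, none of the 30 genes was called and 17 of 19 enzymes again had a fold below 0 (median log2 fold -0.15), in a comparison that shares its animals with the one above. Of all genes, 0.895% were called. Ebp was at 39.1 ± 0.637 CPM in icKO and 50.9 ± 2.89 CPM in controls (SD, n = 3 and 3), a log2 fold of -0.38 (SE 0.08) with adjusted p = 0.0698 by edgeR. Fdft1 was at 218 ± 24.9 and 281 ± 17.1 CPM (-0.37, SE 0.08, edgeR adjusted p = 0.0742), Acat2 at 94.5 ± 3.89 and 120 ± 4.32 CPM (-0.35, SE 0.07, edgeR adjusted p = 0.0767) and Fdps at 17.1 ± 0.568 and 22.9 ± 0.729 CPM (-0.42, SE 0.09, edgeR adjusted p = 0.0812; SD, n = 3 and 3). At unadjusted p under 0.05 there were 11 of the 30 genes (36.7%), against 19.5% of all genes. DESeq2 called 6 of the 30 and 1036 of all genes, where edgeR called 165 of all genes. Without the muscle-bearing formalin library of icKO 5, edgeR called 1422 of all genes and 7 of the 30. Acat2, Fdps, Fdft1, Msmo1, Nsdhl and Ebp were lower and Srebf2 higher. The totals of icKO 1 and icKO 5 then held noninjected libraries alone, where every control total summed both agents. Genotype and agent were thus partly mixed in that fit. In icKO 5, Srebf2 was at 226 CPM noninjected and 124 CPM with formalin, Msmo1 at 195 and 299 CPM, and Fdft1 at 203 and 201 CPM.

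Grouped by title, none of the 30 genes was called, nor any of 18787 genes (0%) in edgeR's test. At an unadjusted p under 0.05 there were 1769 genes, and DESeq2 called 68, none of them among the 30. Acat2 then overlapped between titled groups, at 103 ± 12.3 CPM in icKO and 113 ± 10.9 CPM in controls (SD, n = 5 and 5; log2 fold -0.15, SE 0.10). The enzymes had 17 of 19 folds below 0 with a median log2 fold of -0.10.

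**Figure D2:**
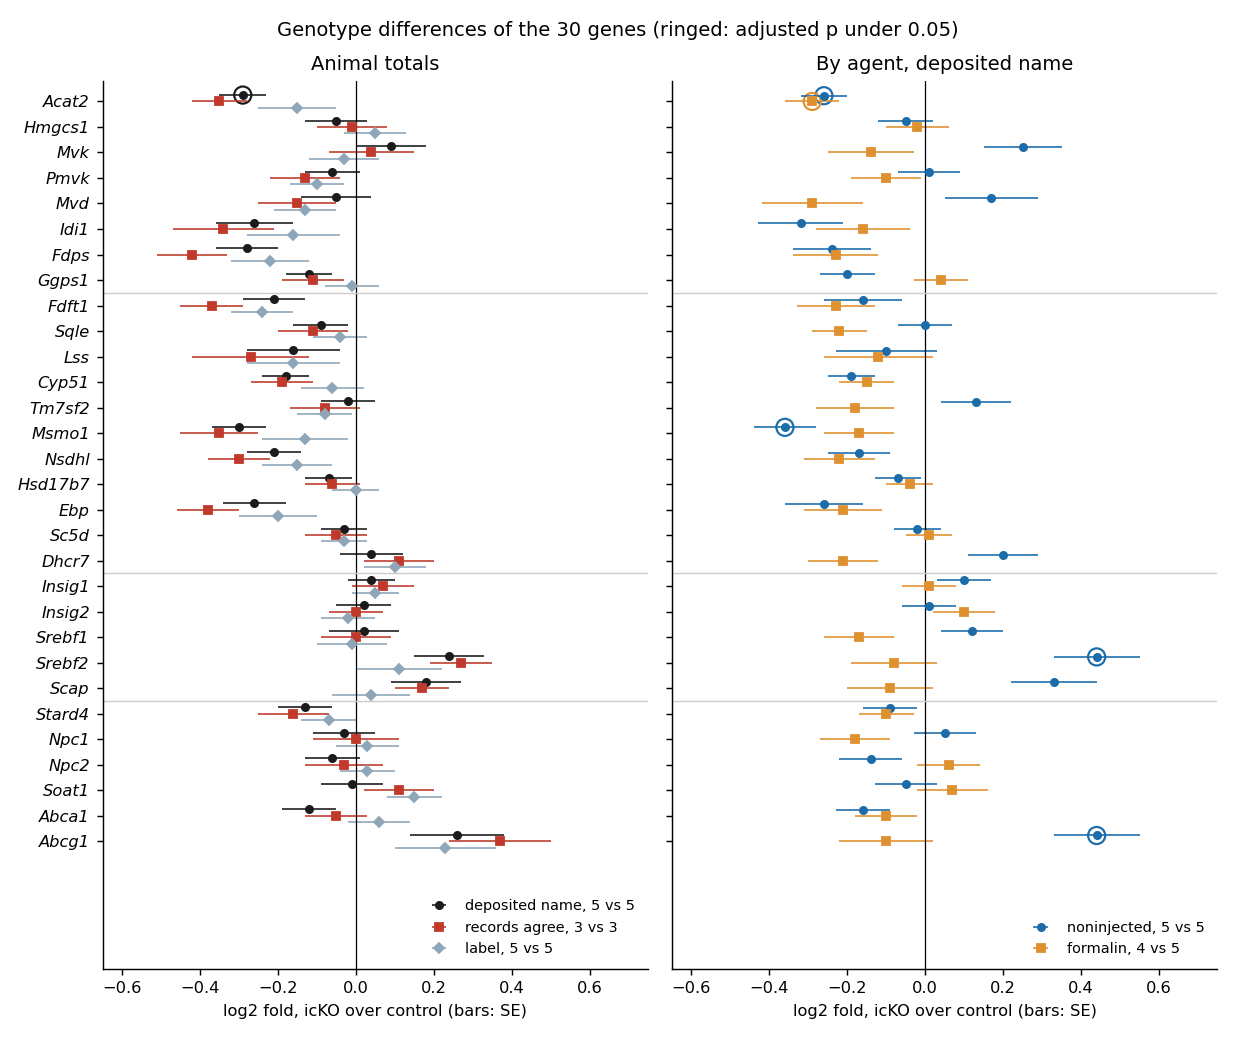
Log2 fold of icKO over control for the 30 genes, ordered by role, with standard errors. The left panel gives animal totals under the 3 genotype groupings and the right panel the noninjected and formalin libraries by deposited name. Rings mark adjusted p under 0.05, reached over animal totals by Acat2 alone (-0.29, deposited name), and by agent also by Msmo1, Srebf2 and Abcg1 in noninjected libraries.

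In noninjected libraries, 4 of 30 genes (13.3%) were called, against 9.38% of all 17671 genes tested, a share near the background. Acat2 and Msmo1 were lower and Srebf2 and Abcg1 higher in deposited-icKO libraries. Among the 19 enzymes, 14 had a fold below 0 and 5 (26.3%) above 0, with a median log2 fold of -0.10. Of all genes, 49.6% were above 0. The count of enzymes below 0 was 11 to 15 over 16 alternatives. Those above 0 were Mvk (0.25, SE 0.10), Dhcr7 (0.20, SE 0.09), Mvd (0.17, SE 0.12), Tm7sf2 (0.13, SE 0.09) and Pmvk (0.01, SE 0.08). Without overlap were 5 genes lower (16.7%; Acat2, Idi1, Fdps, Cyp51 and Msmo1), against 3.63% of all genes, and 2 genes higher (6.67%; Srebf2 and Abcg1), against 4.79% of all genes.

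Acat2 in noninjected libraries was at 102 (control 1), 104 (control 4), 95.1 (icKO 1), 96.9 (icKO 4) and 86.8 CPM (icKO 5) against 117 (control 2), 120 (control 3), 123 (control 5), 115 (icKO 2) and 105 CPM (icKO 3). The groups did not overlap, with 104 CPM in control 4 next to 105 CPM in icKO 3. Its log2 fold was -0.26 (SE 0.06, edgeR adjusted p = 0.0196). The call was kept in 12 of 16 alternatives and lost without control 2 (adjusted p = 0.0602), control 3 (0.0657) or icKO 1 (0.0606), or with no filter on low counts.

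Msmo1 in noninjected libraries was at 237 (control 1), 232 (control 4), 208 (icKO 1), 208 (icKO 4) and 195 CPM (icKO 5) against 294 (control 2), 307 (control 3), 262 (control 5), 276 (icKO 2) and 253 CPM (icKO 3). All deposited-icKO libraries were below all deposited-control libraries. Its log2 fold was -0.36 (SE 0.08, edgeR adjusted p = 0.0121), and the call was kept in 15 of 16 alternatives, the exception being without control 3 (-0.31, adjusted p = 0.0595).

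Srebf2 in noninjected libraries was at 185 (control 1), 200 (control 4), 241 (icKO 1), 187 (icKO 4) and 226 CPM (icKO 5) against 175 (control 2), 133 (control 3), 158 (control 5), 166 (icKO 2) and 155 CPM (icKO 3). The groups did not overlap, and icKO 1 and icKO 5 were the highest. Its log2 fold was 0.44 (SE 0.11, edgeR adjusted p = 0.017). The call was lost without icKO 1 (0.39, adjusted p = 0.0829) or control 3 (0.39, adjusted p = 0.0905).

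Abcg1 in noninjected libraries was at 47.5 (control 1), 44.8 (control 4), 65.1 (icKO 1), 47.4 (icKO 4) and 64.4 CPM (icKO 5) against 35.4 (control 2), 42.3 (control 3), 40.0 (control 5), 37.6 (icKO 2) and 42.6 CPM (icKO 3). Again icKO 1 and icKO 5 were far above the rest, and the other deposited-icKO libraries lay just above the highest control library. Its log2 fold was 0.44 (SE 0.11, edgeR adjusted p = 0.0188), and the call was lost without icKO 1 (0.34, adjusted p = 0.107), control 2 (0.42, adjusted p = 0.0719) or control 3 (0.48, adjusted p = 0.0578), and when only the groups compared were fitted. Scap was likewise highest in icKO 1 (67.0 CPM) and icKO 5 (67.9 CPM), with control 4 at 64.0 CPM, and its log2 fold of 0.33 (SE 0.11, edgeR adjusted p = 0.0561) missed the threshold.

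Other features of these noninjected libraries moved with the same animals. A single ID without a name in the table, ENSMUSG00000119584, took 3.82% of counts in icKO 1, 2.67% in icKO 5, 1.72% in icKO 4, 1.06% in control 1 and 0.932% in control 4, against 0.318% to 1.25% in the deposited-control libraries. Of the 17 Schwann cell and myelin genes, 4 were called lower, among them Ncmap, Mal and Drp2, and 16 had a fold below 0, and the summed list ran from 4019 to 5848 CPM in deposited-icKO and from 5397 to 6678 CPM in deposited-control libraries. Of the 10 satellite glia genes, Cdh19 was called lower, and the summed list ran from 2043 to 2436 CPM against 2368 to 3050 CPM. Of the 12 sensory neuron genes, Pou4f1 was called higher and 11 had a fold above 0, and the summed list ran from 12526 to 15647 CPM against 10375 to 12861 CPM. No gene of the other cell type lists was called. Folds were below 0 for 12 of 12 macrophage (median -0.38), 10 of 11 skeletal muscle (-0.46) and 7 of 8 endothelium genes (-0.15). They were above 0 for 8 of 8 erythroid (1.02), 6 of 8 adipocyte (0.09) and 5 of 10 fibroblast genes (-0.04). Their part in the values of the 30 genes was not tested. In whole ganglia, fewer cells of a type and less RNA per cell cannot be told apart.

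**Figure D3:**
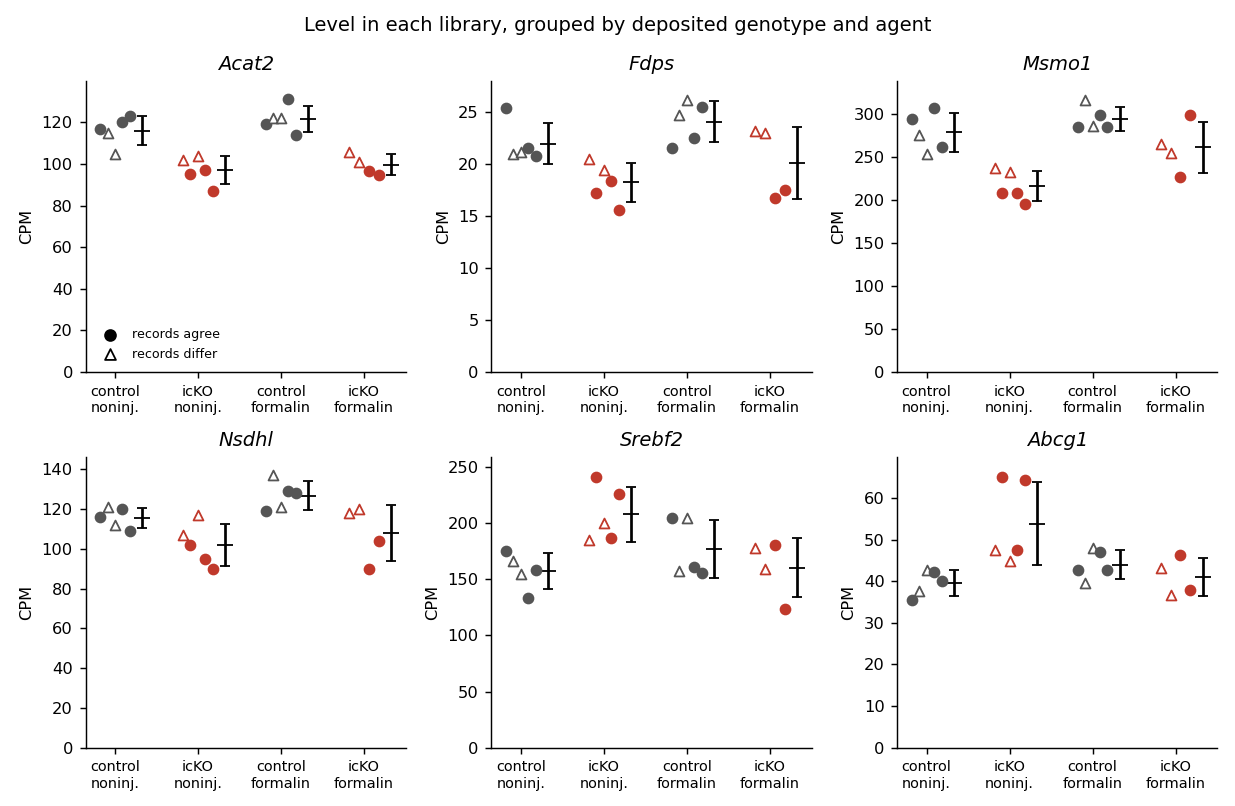
Level (CPM) of 6 genes in each library, grouped by deposited genotype and agent, with 5 libraries per group and 4 for icKO formalin. Filled circles are animals whose records agree and open triangles those whose records differ, and bars give mean and SD. Acat2 is lower in icKO under both agents, and Srebf2 and Abcg1 lie above control without overlap among noninjected libraries, where Srebf2 reaches 241 CPM in icKO 1 and 226 CPM in icKO 5, and overlap with formalin.

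In formalin libraries, 1 of 30 genes (3.33%) was called, against 3.96% of all genes. Acat2 was at 106 (control 1), 101 (control 4), 96.8 (icKO 4) and 94.7 CPM (icKO 5) against 119 (control 2), 131 (control 3), 114 (control 5), 122 (icKO 2) and 122 CPM (icKO 3), again without overlap. Its log2 fold was -0.29 (SE 0.07, edgeR adjusted p = 0.0266), the same size as in animal totals, which hold the same libraries. The call was kept in 10 of 16 alternatives. It was lost without the muscle-bearing library of icKO 5, and without control 3, control 5, icKO 3 or icKO 4. With only the formalin groups fitted, 1 library per animal, the call was also lost (edgeR adjusted p = 0.16). That fit called 31 genes in all, where the 4-group fit called 699. Of the 19 enzymes, 17 had a fold below 0 (median log2 fold -0.17), and 19 had one below 0 without the library of icKO 5. Srebf2 was at 160 ± 26.2 CPM in deposited-icKO and 177 ± 25.8 CPM in deposited-control formalin libraries, and Abcg1 at 41.0 ± 4.49 and 43.9 ± 3.47 CPM (SD, n = 4 and 5), with overlap in both. Msmo1 was at 261 ± 30.2 and 294 ± 13.8 CPM, and icKO 5, at 299 CPM, reached the control range. Insig2 was higher without overlap, at 45.9 to 47.2 CPM in deposited-icKO and 39.6 to 45.4 CPM in deposited-control formalin libraries. Its log2 fold was 0.10 (SE 0.08), and it was not called. The share of all genes without overlap is not given for formalin libraries. Erythroid genes moved with this comparison too, with 6 of 8 called higher and a summed level of 440 to 1848 CPM in deposited-icKO against 173 to 367 CPM in deposited-control libraries, as did muscle genes (5 of 11 tested called higher, 85.9 to 2494 CPM against 65.6 to 108 CPM). Of the other lists, 2 of 10 fibroblast genes (Pi16 and Fn1) and 1 of 8 adipocyte genes (Retn) were called higher. Of 12 sensory neuron genes, 1 was called lower and 11 had a fold below 0 (median log2 fold -0.14). None of 12 macrophage, 8 endothelium, 17 Schwann cell and 10 satellite glia genes was called. Their part was not tested.

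None of the 30 genes passed the test for formalin. Over all animals, 0% of 17671 genes were called by edgeR, with 861 at an unadjusted p under 0.05 and 2 called by DESeq2. Of the enzymes, 16 of 19 had a fold above 0 with a median log2 fold of 0.07, where 49.9% of all genes were above 0, but the number below 0 ran from 0 to 7 over 16 alternatives. The largest enzyme value was Msmo1 at 279 ± 27.2 CPM with formalin (SD, n = 9) and 247 ± 38.0 CPM without (SD, n = 10), higher in 7 of the 9 animals with both libraries (log2 fold 0.18, SE 0.06, edgeR adjusted p = 0.848). Within an animal, 17 of 19 enzymes were higher with formalin in control 1 and icKO 2, 18 in icKO 3, 15 in control 3 and 14 in control 2. The number was 11 in icKO 5, 10 in control 5, 8 in icKO 4 and 7 in control 4. Of all genes tested, from 47.2% (icKO 3) to 52.6% (icKO 5) were higher within an animal. Nsdhl, Hsd17b7 and Stard4 were higher in 8 of 9 animals, at most by 0.23 on the log2 scale. In deposited-control animals alone 0% of genes were called (672 at an unadjusted p under 0.05, and 0 by DESeq2).

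In deposited-icKO animals, with 4 formalin and 5 noninjected libraries, edgeR also called 0% of genes, although 4147 had an unadjusted p under 0.05 and DESeq2 called 1114, among them 6 of the 30. Srebf2 was lower with formalin in all 4 animals with both libraries, by log2 differences of -0.06 (control 1), -0.33 (control 4), -0.05 (icKO 4) and -0.87 (icKO 5). Abcg1 was lower in the same 4, by -0.14 (control 1), -0.29 (control 4), -0.03 (icKO 4) and -0.76 (icKO 5). The differences were uneven, with icKO 5 far ahead. In deposited-control animals Abcg1 was higher with formalin in all 5, by 0.26 (control 2), 0.15 (control 3), 0.09 (control 5), 0.07 (icKO 2) and 0.17 (icKO 3), and Srebf2 in 3 of 5. Srebf1 was lower in all 4 deposited-icKO animals and in 3 of 5 deposited-control animals.

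The test of the difference between genotypes in the formalin contrast, the interaction, called 0% of genes with edgeR (4195 at an unadjusted p under 0.05, and 842 called by DESeq2). Abcg1 had a log2 interaction of -0.54 (SE 0.16) and Srebf2 -0.52 (SE 0.15), both with edgeR adjusted p = 0.108, and DESeq2 called both. Dhcr7 (-0.41, SE 0.13), Scap (-0.41, SE 0.15), Mvd (-0.46, SE 0.18) and Mvk (-0.39, SE 0.15) followed. Without control 1, edgeR called 6 of the 30 in this interaction (Mvk, Dhcr7, Mvd, Scap, Srebf2 and Abcg1) and 4 lower with formalin in deposited-icKO animals (Scap, Srebf1, Srebf2 and Abcg1), where 1762 and 1990 of all genes were called. Without the formalin library of icKO 5, Abcg1 had an interaction of -0.51 (SE 0.17, edgeR adjusted p = 0.236) and Srebf2 of -0.43 (SE 0.14, edgeR adjusted p = 0.229). No gene of the cell type lists was called in this interaction. Log2 values were below 0 for 12 of 12 sensory neuron genes (median -0.43) and above 0 for 12 of 12 macrophage (0.76), 11 of 11 skeletal muscle (4.82), 10 of 10 fibroblast (1.16), 8 of 8 erythroid (1.09), 8 of 8 adipocyte (2.28), 8 of 8 endothelium (0.59), 16 of 17 Schwann cell (0.29) and 8 of 10 satellite glia genes (0.29). For formalin in deposited-icKO animals alone, 11 of 12 sensory neuron genes had a fold below 0 (median -0.31), and all 12 macrophage (0.50), 11 skeletal muscle (4.37) and 10 fibroblast genes (0.64) one above 0, again with none called. Their part in the values of the 30 genes was not tested.

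**Figure D4:**
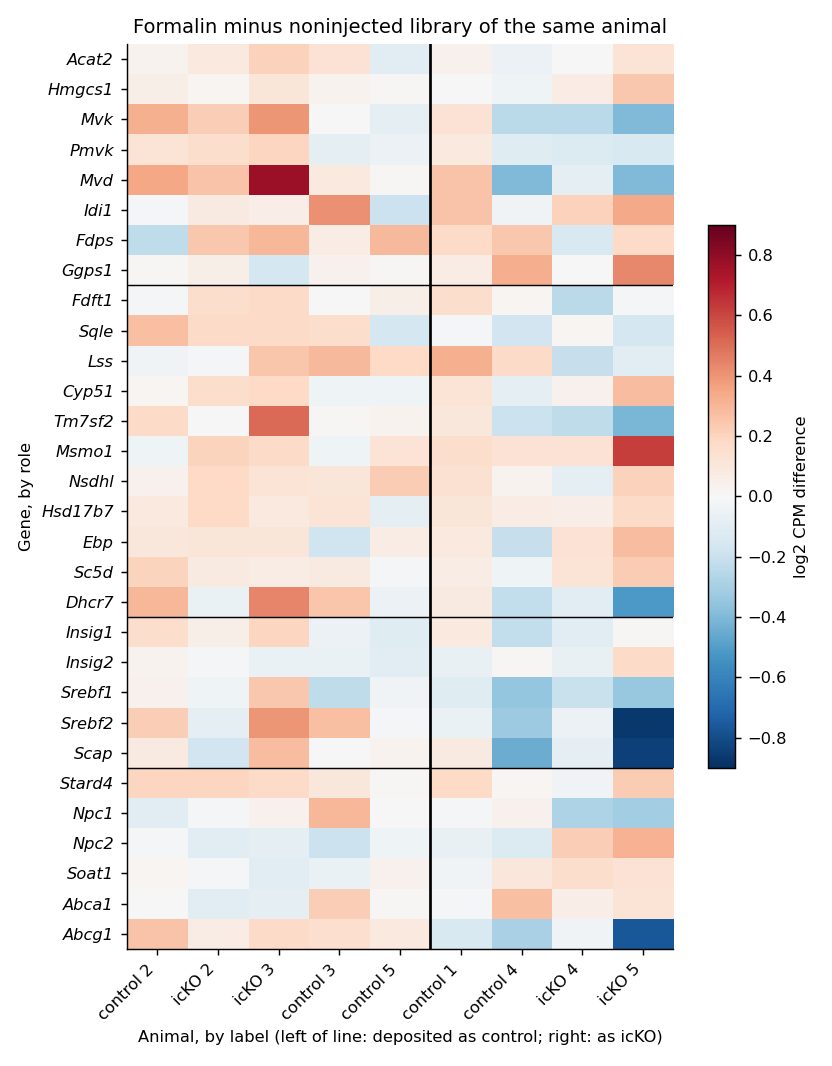
Log2 CPM difference, formalin minus noninjected library of the same animal, for the 30 genes (rows, by role) in the 9 animals with both libraries (columns, titled names). Red is higher with formalin and blue lower. Abcg1 is above 0 in the 5 deposited-control animals and below 0 in the 4 deposited-icKO animals, most in icKO 5 (-0.76).

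Between male and female animals none of the 30 genes was called by edgeR, where 0.0692% of all genes were called. Of the enzymes, 14 of 19 had a fold below 0 in males over females (median log2 fold -0.09). The largest were Mvd at 45.5 ± 5.86 CPM in males and 55.0 ± 1.33 CPM in females (SD, n = 5 and 5; log2 fold -0.26, SE 0.09, edgeR adjusted p = 0.323) and Dhcr7 at 65.6 ± 3.20 and 77.5 ± 8.79 CPM (-0.25, SE 0.08, edgeR adjusted p = 0.321). At an unadjusted p under 0.05 were 6 of the 30 genes (20%), against 12.8% of all genes (2398).

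Related pathways were read from 2 further lists. Of 16 fatty acid synthesis genes, none was called over animal totals by deposited name, and 12 had a fold above 0 (median log2 fold 0.04). The smallest p-values were those of Thrsp (0.38, SE 0.15, edgeR adjusted p = 0.236) and Fasn (0.42, SE 0.17, edgeR adjusted p = 0.239). Fasn, fatty acid synthase, was called higher in noninjected deposited-icKO libraries (log2 fold 0.64, SE 0.17, edgeR adjusted p = 0.0276), and Elovl6, a fatty acid elongase, lower in formalin ones (-0.33, SE 0.08, edgeR adjusted p = 0.0273). Of 28 other sterol-handling genes tested over animal totals, none was called either. The smallest p-values were those of Cyp46a1 (0.39, SE 0.10, edgeR adjusted p = 0.107) and Scarb1, a lipoprotein receptor (-0.28, SE 0.08, edgeR adjusted p = 0.14). Cyp46a1, the neuronal cholesterol hydroxylase, was called higher in noninjected deposited-icKO libraries (0.50, SE 0.13, edgeR adjusted p = 0.0254), as was the neuronal sterol exporter Abcg4 (0.44, SE 0.13, edgeR adjusted p = 0.0365). In formalin libraries, Lbr, a nuclear envelope sterol reductase (0.89, SE 0.18, edgeR adjusted p = 0.0147), and Apoc1, an apolipoprotein (0.88, SE 0.22, edgeR adjusted p = 0.0351), were called higher. Within each agent the calls were 1 of 16 fatty acid and 2 of 27 sterol-handling genes. Of all genes, 9.38% were called in noninjected and 3.96% in formalin libraries. Over animal totals, all 8 adipocyte genes had a fold above 0 (median log2 fold 1.10), with none called. Their part in these values was not tested. With formalin over all animals, none of the 16 and none of 27 tested genes on these lists was called.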

How the data were processed

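The authors deposited raw counts per Ensembl gene for 20 libraries. The submitters' processing notes name GRCm39 as the build and, as tools, featureCounts 2.0.1, STAR 2.7.8a and bcl2fastq 2.20.0.422. Not given in the sources used here were their annotation release, strand setting and treatment of multi-mapping reads. Per the labels' protocols the library kit was non-stranded. Gene names matched 52083 of 55416 IDs. Gene lengths and overlaps came from GENCODE annotation of GRCm38, and promoter sequences from RefSeq (GRCm38.p6).

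Counts of the 19 libraries above 1000000 were tested with edgeR 4.0.16 in R 4.3.3 (TMM scaling, filterByExpr, robust quasi-likelihood F test, sex as covariate), with Benjamini-Hochberg adjustment over all genes tested and a threshold of 0.05. For genotype and sex, the libraries of each animal were summed. Within agents, and for formalin and the interaction, 4 groups shared 1 fit. Each standard error is the fold divided by the root of its F value. The fits were also run on simulated data, but the results are not given here and no conclusion is drawn from them. Chi-square per degree of freedom between libraries of 1 group ran from 7.36 to 101 over 36 pairs, so none repeats another. For animal totals, p-values measure the spread between these animals. In the 4-group fit both libraries of an animal counted separately, with no animal term. Its p-values therefore do not measure that spread alone. With only the groups compared fitted, 1 library per animal, genotype calls went from 1658 to 1254 genes in noninjected libraries. They went from 699 to 31 genes in formalin libraries.

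Title number and deposited animal name are shared by the noninjected and the formalin library of an animal, so they pair formalin with noninjected libraries. Deviations from the group means correlated at -0.04 (control 1) to 0.43 over 9 pairs. Alternatives were DESeq2 1.42.0, RLE size factors, no low-count filter, no sex term, each animal left out, no formalin library of icKO 5, fits of only the groups compared and an animal block. All 30 genes are accounted for, with values per library for called genes and for those highest or lowest in level or spread. Of each other list up to 4 called genes, or the 2 of smallest p, are named, and a few genes that this rule would name are not reported here. Although the rule for the 30 genes uses no measured value, the genes, lists and tests were all chosen with earlier results of these data known.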

Additional observations from a re-analysis of the deposited data

Results flagged for a closer look

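Of 120 groups of 4 or 5 libraries (30 genes in 4 groups), 4 held a library far from the others by Dixon's criterion, which chance gives in about 1 in 20 groups. All 4 lay among noninjected deposited-control libraries. Fdps was at 25.4 CPM in control 2, with the others at 20.8 to 21.5 CPM. Sqle was at 264 CPM in control 5, with the others at 221 to 232 CPM. Lss was at 71 CPM in control 3, with the others at 110 to 119 CPM. Npc1 was at 37.1 CPM in control 3, with the others at 47.0 to 48.4 CPM.

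Abcg1 was higher with formalin in all 5 deposited-control animals and lower in all 4 deposited-icKO animals with both libraries. Log2 differences ran from 0.07 to 0.26 in the deposited-control animals. In the deposited-icKO animals they ran from -0.03 (icKO 4) to -0.76 (icKO 5, with the muscle-bearing formalin library). Abcg1 is named here because of this pattern, and the share of all genes that split by sign in this way is not given. The difference between the genotypes was -0.54 on the log2 scale (SE 0.16), and edgeR's quasi-likelihood test of this difference did not pass the threshold (Benjamini-Hochberg adjusted p = 0.108). By the same test, 23.7% of all 17671 genes had an unadjusted p under 0.05.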

How the results depend on the processing

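No log2 fold of a called gene changed sign under any alternative run. Numbers of the 30 genes called moved by more than 1.5 times as follows, and the cause was not tested. By deposited name over animal totals, 1 became 3 with DESeq2, 2 with no filter and 2 without the formalin library of icKO 5 (204 genes in all became 804, 1811 and 342). In animals with agreeing records, 0 became 6 with DESeq2, 7 with no filter and 7 without that library (165 genes became 1036, 1880 and 1422). Without that library, the totals of icKO 1 and icKO 5 held noninjected libraries alone, so genotype and agent were partly mixed. In noninjected libraries, 4 became 7 with DESeq2 and 7 without that library (1658 genes became 2264 and 2385). In formalin libraries, 1 became 2 with DESeq2, 0 without that library and 0 when only the groups compared were fitted (699 genes became 1221, 205 and 31). For formalin in deposited-icKO animals, 0 became 6 with DESeq2 and 4 with no filter (0 genes became 1114 and 2203). For the interaction, 0 became 3 with DESeq2 and 5 with no filter (0 genes became 842 and 2519). Leaving out each animal gave 0 to 1 by deposited name, 0 to 5 in noninjected libraries (0 without control 3, 1 without icKO 1, 2 without control 2), 0 to 1 in formalin libraries, 0 to 4 for formalin in deposited-icKO animals and 0 to 6 for the interaction. It gave 0 to 0 by title, in agreeing animals, for formalin over all and in deposited-control animals, and for sex. With the animal as a replicate block, 0 genes were called in each formalin contrast and in the interaction, as without it, and adjusted p for the Abcg1 interaction was 0.111. Title numbers do not pair animals across genotypes, and used as a block by title they gave 0 of the 30 and 1 gene in all. The lowest count of any of the 30 genes in a library used was 64, and how far depth limits these comparisons was not tested.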

Other observations

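As a description, the genes most like the enzymes were sought among 18604 named genes, by Pearson's r of log2 CPM with the mean z-score of the 19 enzymes over the 10 animals. Xpnpep1 (r = 0.963, 47.0 CPM), Tdrkh (0.953, 58.9 CPM), C130083M11Rik (0.950, 4.87 CPM), Sptbn5 (0.949, 105 CPM) and Igf2bp2 (0.948, 3.04 CPM) were highest, followed by Meaf6 (0.947), C9orf72 (0.946), Csrnp3 (0.942) and Traf2 (0.941). The enzyme closest to the mean of its own group was Fdps (r = 0.917), and 20 genes outside the set lay above it. Ggps1 (0.120), Hmgcs1 (0.222), Mvk (0.281) and Dhcr7 (0.318) followed the group least. With 10 points that share 2 deposited genotypes, these values carry no test.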
